A study of Mus musculus with 10 samples.

Results

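Open chromatin of Myc-CaP cells given interferon gamma (IFNg) was compared with that of untreated cells (Ctrl), as 2 lists of ATAC-seq peaks, which mark where a transposase can reach the DNA. Each distinct interval was counted once, an interval of the IFNg list that shared no base with an interval of the Ctrl list was called gained, the mirror case was called lost, and all others were called kept. Of 118949 IFNg regions 18133 were gained, or 15.2%, and of 122298 Ctrl regions 21109 were lost, or 17.3%. These 39242 changed regions stand among 748625 distinct regions summed over the 5 peak lists of the series.

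Myc-CaP is a male prostate cancer line of FVB/NJ mice, derived from a tumor driven by a MYC transgene under a prostate-specific promoter. The series held 10 libraries in 5 groups of 2, all of this line and all taken at 48 h: no agent (Ctrl), IFNg, Oxali (oxaliplatin, 2 µM), Cispl (cisplatin, 2 µM) and Oxali + IFNg. The labels give the IFNg dose as 1000 pg, without the volume. Both libraries of a group were pooled by the authors before peaks were called, and counts per library are not used here. Every group is thus 1 list, no difference below is set against replicate spread, and none has a p-value.

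IFNg binds a receptor of Ifngr1 and Ifngr2 chains, which activates the kinases Jak1 and Jak2 and, through them, transcription factors of the STAT family. STAT pairs bind gamma-activated sequences (GAS) and induce Irf1, whose family binds the interferon-stimulated response element (ISRE) in a later set of genes. In epithelial tumor cells the cytokine is known for raising antigen presentation, guanylate binding proteins, chemokines and PD-L1.

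Pileup, the number of fragments stacked at a region's highest summit, was recovered as a whole number for all summits from the deposited fold and p-value. The genome background, the pileup of an average position, was 12.1 in the Ctrl list and 9.62 in the IFNg list, which makes the IFNg list the shallowest, at 79.3% of Ctrl. The Oxali, Cispl and Oxali + IFNg lists stood at 11.3, 13.8 and 12.9. A lower pileup can come from fewer cells with an open site or from a less open site in each cell, and these cannot be told apart. Of 10 markers of luminal or general epithelium 7 had a called start site in each list, Krt8, Foxa1 and Hoxb13 among them, and Krt18 was called in Ctrl alone, Epcam in IFNg alone, and Cdh1 in neither. Basal markers had 1 called start site of 4 and leukocyte markers 2 of 6 in each list, fibroblast markers 3 of 5 in Ctrl and 2 in IFNg, and endothelial markers 2 of 5 and 1. Col1a1 and Pdgfra, known from fibroblasts, were open in both lists, at pileups of 606 and 1358 in Ctrl and 332 and 991 in IFNg.

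The sequences below were chosen to show the interferon motifs that gained regions at interferon genes held, printed on the plus strand of GRCm38 (mm10) with GAS or ISRE matches in capitals. GAS was searched as TTCNNNGAA and ISRE as GAAANNGAAA, on both strands and within 100 bp of the summit, so that a match can lie at or just past the end of a region. Every ISRE shown lies on the minus strand. Sites in or beside an untranslated region are given as at most 30 bases.
Irf9, ISRE (chr14:55613012-55613112): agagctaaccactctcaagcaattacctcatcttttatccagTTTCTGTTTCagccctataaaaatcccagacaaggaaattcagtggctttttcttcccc
Isg15, ISRE (chr4:156200865-156200894): ccagagctatTTTCTGTTTCGGTTTCcttt
Psmb8, GAS (chr17:34198088-34198116): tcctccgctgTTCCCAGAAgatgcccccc
Psmb8, ISRE (chr17:34198335-34198364): gtactgtggcTTTCGCTTTCacttccttgt
Gbp5, GAS (chr3:142496872-142496900): tggccgttatTTCTCAGAAccaagcacag
Irgm2, GAS (chr11:58225206-58225368): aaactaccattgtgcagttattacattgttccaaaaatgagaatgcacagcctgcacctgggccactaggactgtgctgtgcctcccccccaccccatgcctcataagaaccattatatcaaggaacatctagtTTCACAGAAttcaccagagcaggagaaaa
Oasl2, GAS (chr5:114892293-114892393): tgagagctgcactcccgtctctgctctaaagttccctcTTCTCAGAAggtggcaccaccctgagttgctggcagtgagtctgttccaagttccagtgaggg

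At Isg15, which encodes a ubiquitin-like antiviral protein, the start-site region chr4:156200748-156200972 had no call in Ctrl and a pileup of 224 in IFNg, then 359 in Oxali, 303 in Cispl and 410 in Oxali + IFNg. Its local background was 125.8, so the region stood on a broad raised stretch, and it held 3 ISRE matches, with 2 of them overlapping in the printed site. Psmb8, an immunoproteasome subunit whose start lies just past the end of the peptide transporter gene Tap1, gained at its start sites the regions chr17:34197983-34198148 with the GAS and chr17:34198208-34198408 with the ISRE, both at a pileup of 37. The former lay 101 bp from a Ctrl region and the latter 326 bp, and both were inside regions of the Oxali (66), Cispl (197) and Oxali + IFNg (216) lists. At Irf9, the DNA-binding partner of STAT proteins in the interferon response, the gained region chr14:55612934-55613083 had a pileup of 31 and lay 102 bp from a Ctrl region. All of these sites were open in at least 1 list without IFNg.

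Among the GTPases, Gbp5 gained its start-site region chr3:142496883-142497061, with the GAS at its edge, at pileups of 0 in Ctrl, 30 in IFNg, 49 in Oxali, 49 in Cispl and 62 in Oxali + IFNg. A region just beside it, chr3:142497280-142497444 (pileup 36), was called in no other list. The Irgm2 region chr11:58225053-58225333, at a pileup of 31, had 268 in Oxali, 301 in Cispl and 340 in Oxali + IFNg and lay 114 bp from a Ctrl region, with its GAS just past its end. The Oasl2 region chr5:114892244-114892427, at a pileup of 40, was made of repeat sequence throughout, and reads there can come from other copies.

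Lost regions at interferon genes held the same motifs. Irf1, a factor that interferon induces early, lost chr11:53777631-53777835 with a GAS (pileup 30, then 0 in IFNg, 39 in Oxali, 83 in Cispl and 101 in Oxali + IFNg), a region that is 85.4% repeat sequence. Gbp8 lost an intronic region with a GAS at chr5:105058990-105059148 (pileup 32), and Oas3, an antiviral RNA sensor, lost an intronic region with an ISRE at chr5:120765147-120765303 (pileup 42). Over the whole lists a GAS stood in 4.94% of gained regions (95% Wilson interval 4.63 to 5.26), in 5.64% of kept and in 6.04% of lost regions. An ISRE stood in 1.84% of gained, 1.85% of kept and 1.86% of lost regions, so over the whole lists neither motif was more frequent in gained than in kept regions. Away from start sites at a pileup of 25 to 50 the GAS shares of gained and kept regions, 5.17% (4.73 to 5.65) and 5.57% (5.30 to 5.84), had overlapping intervals. At start sites an ISRE stood in 2.11% of gained (1.57 to 2.83) and 1.48% of kept regions (1.31 to 1.66), which also overlap. The letters of each motif in reversed order gave 5.49% and 1.78% of gained regions. Wilson intervals here cover counting error only.

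The members of the pathway are described next by role, each with the number of genes that had a gained or lost region in the gene or 5 kb around it. Of 21911 protein-coding genes 32.8% had a gained and 35.7% a lost region, and both shares grow with gene length, from 16.8% and 15.1% of genes under 10 kb to 60.9% and 72.0% of genes over 100 kb. The counts of each list below are to be read against that background, and with lists this short 1 gene moves a share far.

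Of 10 genes of the receptor and its transducers 1 had a gained region, Jak1 with 2, and 5 had a lost one, Jak1, Jak2, Stat5a, Stat5b and Stat6. The start site of Ifngr1, the ligand-binding chain, was called in all lists, at pileups of 2133 in Ctrl, 983 in IFNg, 937 in Oxali, 945 in Cispl and 897 in Oxali + IFNg. Jak2, a kinase bound to the receptor, had 3107, 1762, 2386, 2440 and 1808 in the same order. Both were lower in IFNg than in Ctrl by more than the depth, as most start sites were. Of 9 inhibitors of the pathway 5 had a gained region: Socs3, Cish, Ptpn1, Ptpn6 and Usp18. The gained region beside Socs3, the feedback inhibitor of Jak kinases, at chr11:117964304-117964488, had 255 in IFNg over a local background of 160.1, and 336, 381 and 968 in Oxali, Cispl and Oxali + IFNg. Ptpn1, Cish and Pias1 had lost regions.

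Of 9 interferon regulatory factors 6 had a gained region (Irf2, Irf3, Irf4, Irf5 and Irf9 among them) and 2 a lost one (Irf1 and Irf2). The start site of Irf5 had pileups of 51, 56, 67, 78 and 115 in Ctrl, IFNg, Oxali, Cispl and Oxali + IFNg. Those of Irf1 were 1721, 930, 1173, 1238 and 1039, highest in Ctrl.

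Of 17 GTPases of the Gbp, Irg and Mx families found in the annotation, of 19 listed, 7 had a gained region (Gbp3, Gbp5, Gbp6, Gbp7, Irgm2, Iigp1 and Mx1) and 6 a lost one (Gbp3, Gbp8, Irgm1, Tgtp1, Tgtp2 and Mx1). Gbp and Irg proteins attack the vacuoles of intracellular pathogens. Many lie in tandem clusters of near-identical copies, so reads can be split between them and single values are uncertain. The start site of Mx1, chr16:97462802-97462995, had no call in Ctrl and pileups of 23, 45, 51 and 67 in IFNg, Oxali, Cispl and Oxali + IFNg.

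Of 17 genes of class I antigen processing 5 had a gained region (Nlrc5, Tap1, Tapbp, Psmb8 and B2m) and 8 a lost one (Nlrc5, Tap2, Psmb8, Psme1, Erap1, Canx, Pdia3 and H2-K1). Nlrc5, the transactivator of class I genes, had 6 gained regions against 1 lost, with pileups of 21 to 40, and 4 of the 6 were called in no other list. B2m, the light chain of class I molecules, gained chr2:122148556-122148750 at its start site, with pileups of 86 in IFNg, 126 in Oxali, 142 in Cispl and 157 in Oxali + IFNg. This B2m region lay 328 bp from a Ctrl region, over a local background of 47.5. Of 12 class II genes 4 had a gained region (Ciita, H2-DMa, H2-DMb1 and Ctss) and 6 a lost one (Ciita, H2-Ab1, H2-DMa, H2-DMb2, Ctss and Rfx5). Ciita, the transactivator of class II genes, gained a start-site region, chr16:10489741-10489895, which lay 11801 bp from any Ctrl region and had pileups of 0, 24, 50, 54 and 89 in the order above, and Ciita lost an intronic and an intergenic region. Among the 4 lists that called them, Ciita and Mx1 had their highest pileup in Oxali + IFNg.

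Of 11 chemokine and checkpoint genes found, of 12 listed, 3 had a gained region (Cxcl10, Pdcd1lg2 and Icam1) and 5 a lost one (these 3, Cxcl9 and Cx3cl1). Cxcl10, which draws T cells, had a main start-site region with pileups of 93, 87, 185, 165 and 208, and gained a weak region beside it, chr5:92348359-92348508 (pileup 20). The start-site region of Icam1, an adhesion molecule for T cells, was lost at chr9:21016456-21016615, with pileups of 43, 0, 51, 92 and 148, and lay 121 bp from a region of the IFNg list. Cd274, the gene of PD-L1, had neither a gained nor a lost region, at 135, 90, 146, 149 and 206. This Icam1 interval, though not its surroundings, thus had no call with IFNg alone, and its highest value was with Oxali + IFNg.

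Of 25 antiviral interferon-stimulated genes found, of 26 listed, 6 had a gained region (Isg15, Ifit1, Oasl1, Oasl2, Ifi35 and Ifi27) and 8 a lost one (Ifit3, Oas2, Oas3, Oasl1, Rsad2, Parp14, Samhd1 and Xaf1). The start site of Rsad2, which encodes viperin, was lost at chr12:26456303-26456571, with pileups of 34, 0, 96, 78 and 128. Ifit1, a sensor of foreign RNA caps, had 104, 99, 242, 248 and 352, and Oasl2 90, 72, 135, 155 and 269. Gained and lost calls at interferon genes thus went both ways.

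**Figure D1:**
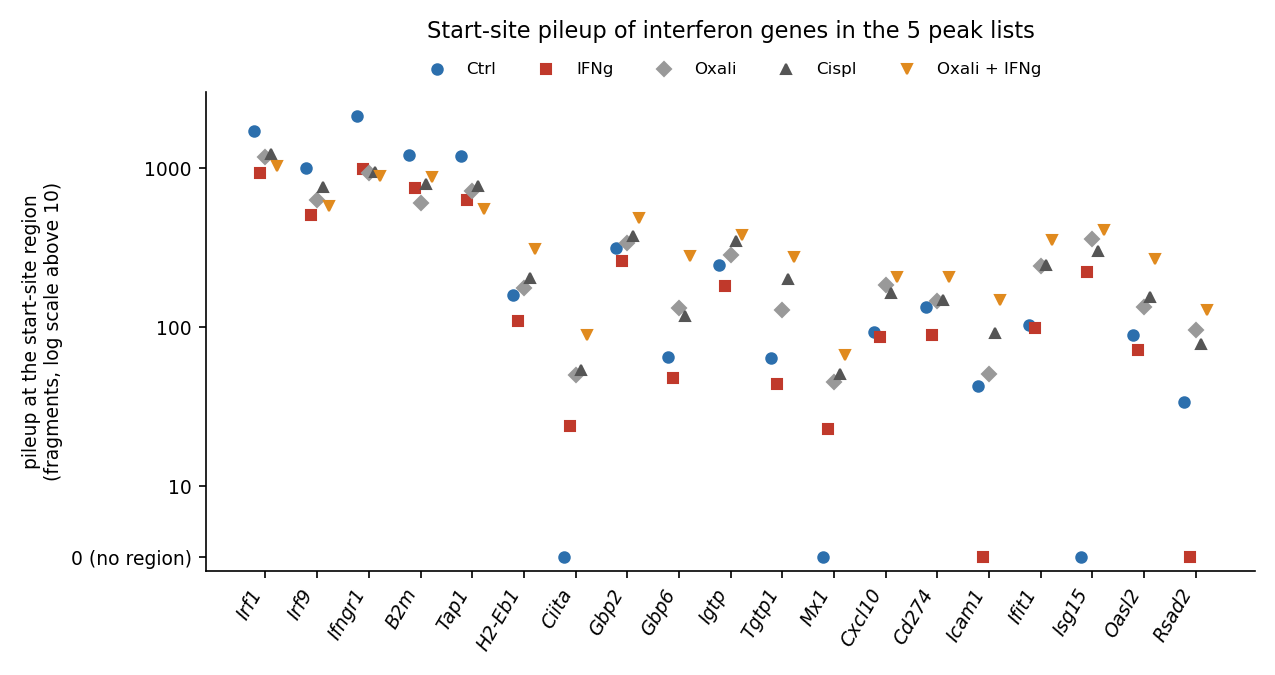
Pileup (fragments, log scale above 10) at the start-site region of 19 interferon genes in the Ctrl, IFNg, Oxali, Cispl and Oxali + IFNg lists, 1 point per list, with 0 where no region was called. Ciita, Mx1 and Isg15 had no call in Ctrl, the Icam1 and Rsad2 intervals none in IFNg, and pileups, which are not scaled for the lower depth of the IFNg list, were lower in IFNg than in Ctrl at the other genes shown.

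Levels of regions that both lists held add what calls leave out. A level is a pileup over the genome background of its list, and the merged regions called in both lists numbered 96888. Their median log2 ratio of the IFNg level over the Ctrl level was -0.21, or 0.862-fold, and all values below are given relative to that median unless stated. Of 79215 regions with a pileup of at least 50 in one list, 1251 (1.58%) were at least 2-fold higher in IFNg and 694 (0.876%) at least 2-fold lower. Start-site regions were lower than the rest, at a median of -0.25 (n = 16699) against -0.02 elsewhere (n = 62516). The Oxali + IFNg list against the Oxali list, a pair that shares no library with the first, gave -0.30 and 0.01. Scaled to the median of start sites instead, the median of all kept regions turned from -0.21 to 0.22, so whether a typical region was lower or higher in IFNg rests on the scale.

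The start-site ratio moved with pileup. Among 11927 protein-coding genes with a level the median was -0.35 in the first pair and -0.40 in the second. By mean pileup it was -0.05 under 100 (n = 677), -0.11 from 100 to 200 (n = 561), -0.26 from 200 to 500 (n = 1615), and -0.38 both from 500 to 1000 (n = 4358) and at 1000 or more (n = 4716). In the second pair it went from 0.13 to 0.02, -0.31, -0.44 and -0.45 over the same classes. Each gene was therefore also set against start sites of its own class, a scale chosen after the values were seen.

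The GTPases stood highest of the 14 lists of pathway, response and control genes on both scales in the second pair. Their median start-site level was 0.07 in the first pair (n = 9, range -0.17 to 0.37), against -0.35 for all genes, and 0.31 in the second, against -0.40. Against start sites of like pileup all 9 were above their class in the first pair, with a median of 0.26 and with 4 clear of it by their 95% counting interval. In the second pair all 12 were above, with a median of 0.54 and 10 clear. By construction, 50.4% of 11875 genes were above their class in the first pair and 50.5% in the second. The list was chosen with results of these data known and its copies share reads, so the counts are a description.

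Gbp2 had start-site pileups of 316 in Ctrl, 261 in IFNg, 341 in Oxali, 373 in Cispl and 484 in Oxali + IFNg, which put it 0.53 above its class in the first pair (0.29 to 0.77) and 0.64 in the second (0.44 to 0.84). Igtp had 245, 181, 283, 347 and 383 in that order, 0.37 (0.09 to 0.65) and 0.57 above its class. Gbp6 had 65, 48, 132, 117 and 281, 0.17 above its class in the first pair with an interval that held 0, and 0.90 in the second. Tgtp1 had 64, 44, 129, 201 and 276, with 0.06 and 0.91. For Gbp6 and Tgtp1 the second pair alone was clear of its class, and whether the pairs differ was not tested.

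Of the antiviral genes 16 of 17 were above their class in the first pair (median 0.15, 5 clear) and 18 of 19 in the second (median 0.29, 12 clear). Ifit1 stood 0.58 and 0.67 above its class, and Ifit2, which binds RNA, 0.47 and 0.35, with pileups of 1143 in Ctrl and 835 in IFNg. The exception in the first pair was Trim25, a ubiquitin ligase of RNA sensing, at -0.15. Class II genes were at a median of 0.02 in the first pair (4 of 7 above) and 0.32 in the second (7 of 9 above). H2-Eb1, with 159, 109, 177, 204 and 313, went from 0.11 to 0.95.

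The 4 chemokine and checkpoint regions with a level were at 0.28 in the first pair (3 above their class), as high as the GTPases, and 5 were at 0.35 in the second (4 above), Ido1 among them at 0.49 and 0.35.

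Class I genes were at a median of 0.08 in both pairs, with 14 of 16 start-site regions above their class in the first and 10 of 16 in the second. B2m had pileups of 1220, 749, 608, 801 and 876, which is 0.22 above its class in the first pair and 0.79 in the second. Psmb8 had 161, 140, 200, 197 and 216, or 0.45 and 0.24. Tap1 and Psmb9 share 1 start-site region, with 1189, 632, 723, 769 and 553, at 0.02 and -0.12. Canx, a chaperone of class I assembly, was the lowest in the first pair, at -0.37.

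The receptor and transducers (median 0.02), the inhibitors (0.05) and the interferon regulatory factors (0.00) lay near their class in the first pair, and Stat6, at 0.72, and Irf5, at 0.74, were the members farthest above it. Lists of other pathways had medians of -0.06 (NF-kappaB), -0.11 (Myc family), -0.08 (p53 targets), 0.03 (AP-1 subunits), 0.07 (androgen response) and -0.01 (housekeeping). In the second pair the medians of these lists were 0.02, 0.04, 0.02, -0.11, 0.06 and -0.08 in the same order, so the NF-kappaB, Myc, p53 and AP-1 lists did not keep their sign. Relb, an NF-kappaB subunit, had the lowest level of its list against its class, at -0.75, with pileups of 1891 in Ctrl and 588 in IFNg. Luminal and general epithelial markers were 0.29 above their class in the first pair (5 of 6), as far as the GTPases, and 0.27 in the second, so a level above the class was not particular to interferon genes.

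**Figure D2:**
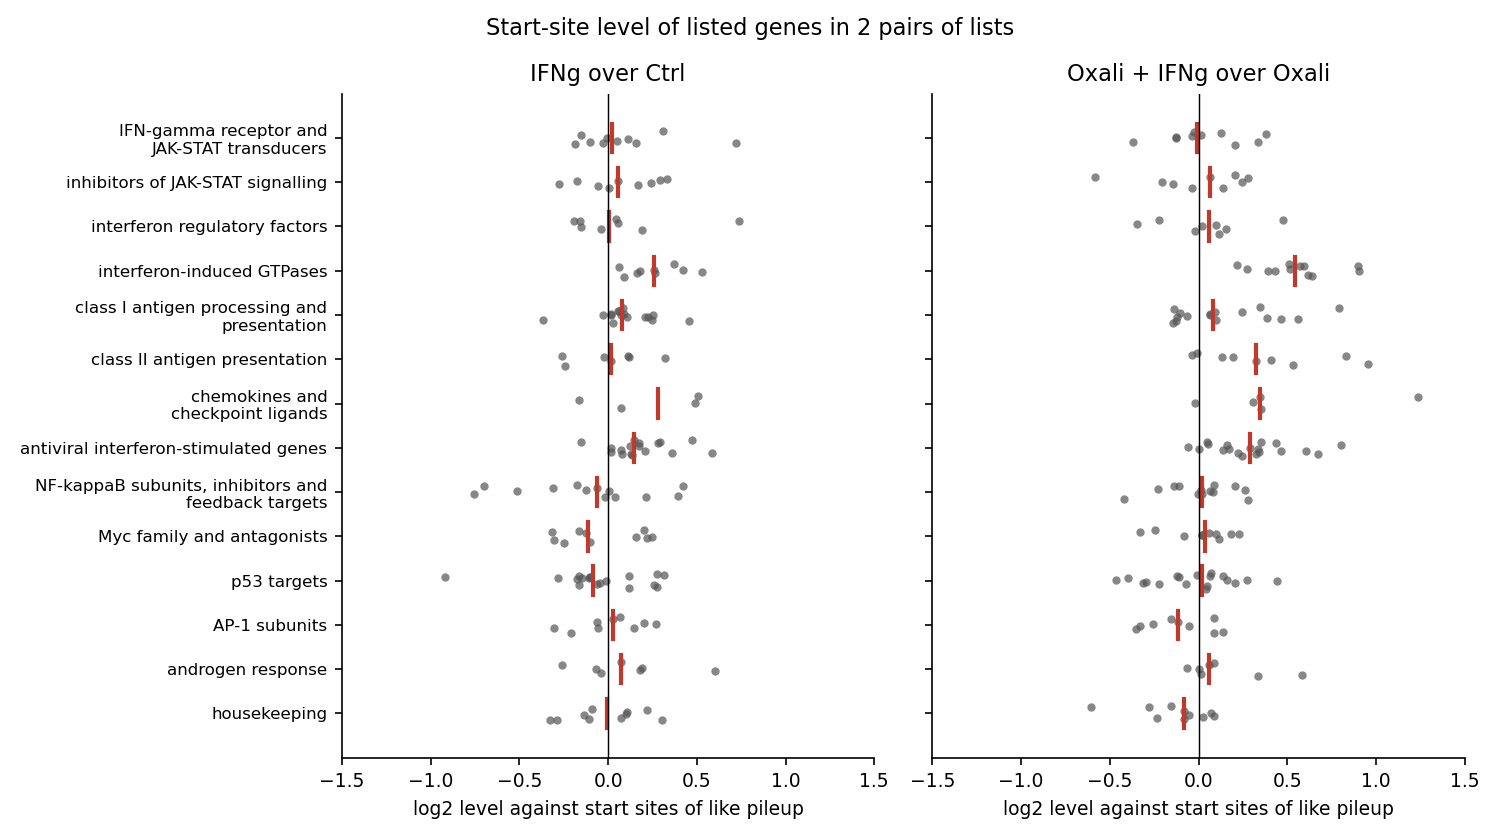
Log2 level of start-site regions against start sites of like pileup (horizontal axis) for the genes of 14 lists, as IFNg over Ctrl (left) and Oxali + IFNg over Oxali (right), with 1 point per region and a bar at each list's median. The GTPases have medians of 0.26 and 0.54 and no member below 0 in either pair.

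Over the whole lists gained and lost regions lay less often at start sites than kept ones. Start sites, taken as 1 kb to either side of a GENCODE M21 transcript start, held 11.2% of gained regions (10.8 to 11.7), 7.04% of lost (6.71 to 7.40) and 18.2% of kept regions. Introns held 43.4% of gained, 50.2% of lost and 42.1% of kept regions, and intergenic sequence 40.3%, 37.1% and 35.1%. Within 500 bp of a start the shares were 5.70%, 4.34% and 15.1%, and once regions within 500 bp of a region of the other list were left out they were 6.88% of gained and 6.00% of lost within 1 kb. The gap between the start-site shares of gained and lost regions was thus smaller without regions near the other list, and on the genome background alone the shares were 6.29% of gained, 5.91% of lost and 6.11% of kept regions, with overlapping intervals. The cause was not tested.

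**Figure D3:**
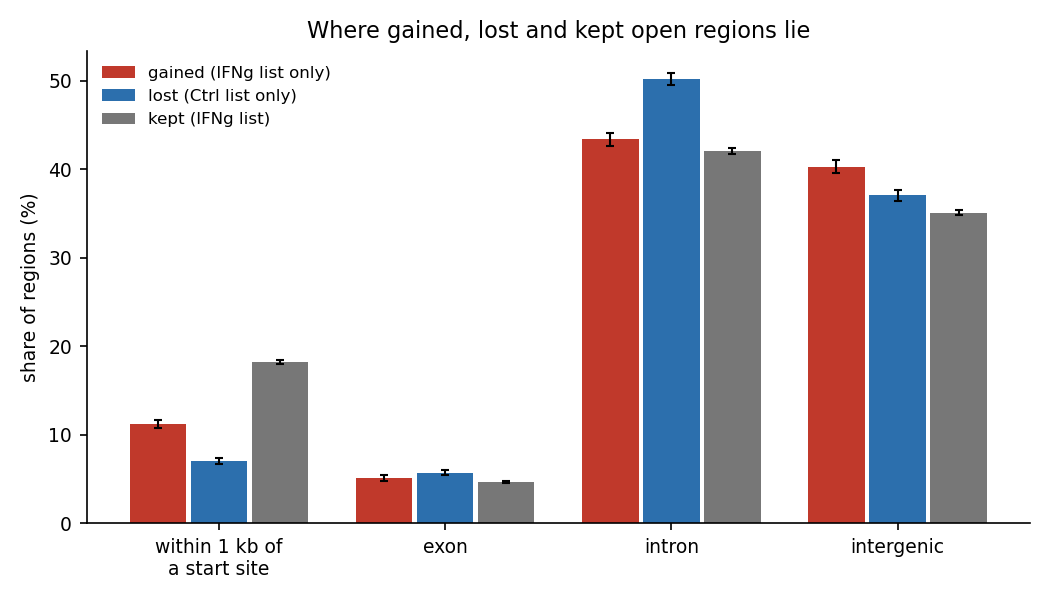
Share of gained, lost and kept regions (%) within 1 kb of a transcript start, in exons, in introns and between genes, with 95% Wilson intervals. Start sites hold 11.2% of gained, 7.04% of lost and 18.2% of kept regions.

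Changed regions were narrow and weak. Gained regions had a median width of 181 bp and a median pileup of 28 (10th to 90th percentile 21 to 77), lost regions 184 bp and 36 (26 to 62), and kept regions of the IFNg list 394 bp and 80. Of gained regions 34.8% and of lost regions 53.5% reached a q-value of 1e-05. Just inside the rule, 385 gained regions (2.12%) lay within 50 bp of a Ctrl region and 352 lost ones within 50 bp of an IFNg region. Just outside it, 274 kept IFNg regions overlapped a Ctrl region by at most 50 bp, with a median pileup of 24.5, and 219 kept Ctrl regions did so, with 30.0. At the far end, 2745 gained (15.1%) and 4831 lost regions (22.9%) lay over 10 kb from the other list.

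Most changed regions were not peculiar to these 2 lists. Of gained regions 58.6% were called in Oxali + IFNg, but 48.7% also in Oxali and 55.9% in Cispl, neither of which had IFNg, 38.5% in all 3 and 29.7% (5386) in none. The Cispl list holds no summit with a −log10 p-value under 2.99, where the other lists reach 2.00, so its shares come from a stricter list. A further 1165 (6.42%) were called in Oxali + IFNg and in neither platinum list. Lost regions were called more often, 71.0% in Oxali + IFNg, 67.0% in Oxali and 77.0% in Cispl, and 14.5% in none, while kept regions reached 95.6%, 94.4% and 96.5%. Of 1611 lost regions on the genome background with a pileup of 50 to 100, 91.7% were called in Oxali + IFNg, which also had IFNg, and 96.2% in Cispl. Over all local backgrounds, lost regions with a pileup of 50 to 100 were called in Oxali + IFNg in 79.7% and in Oxali in 79.2% of cases, and those with 100 or more (n = 785) in 71.0% and 71.6%.

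The pair of Oxali + IFNg and Oxali gives a direction on libraries that the rule did not use. Of gained regions called in exactly 1 of its lists 2498 were called in Oxali + IFNg and 709 in Oxali, 77.9% for the list with IFNg (76.4 to 79.3). The same share was 66.9% for kept (65.3 to 68.4) and 63.1% for lost regions (61.4 to 64.7). With a pileup of 100 or more the share was 88.1% for gained (83.5 to 91.5), 66.1% for kept (60.5 to 71.3) and 47.7% for lost regions (38.7 to 57.0). The Oxali + IFNg list had the higher genome background of the pair, and its part in these shares was not tested. Gained regions with an ISRE had 84.7% (50 against 9, interval 73.5 to 91.8), those with a GAS 71.5% (123 against 49), and those with an AP-1 match 79.9% (539 against 136). The intervals of gained regions with an ISRE and of all gained regions overlap.

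**Figure D4:**
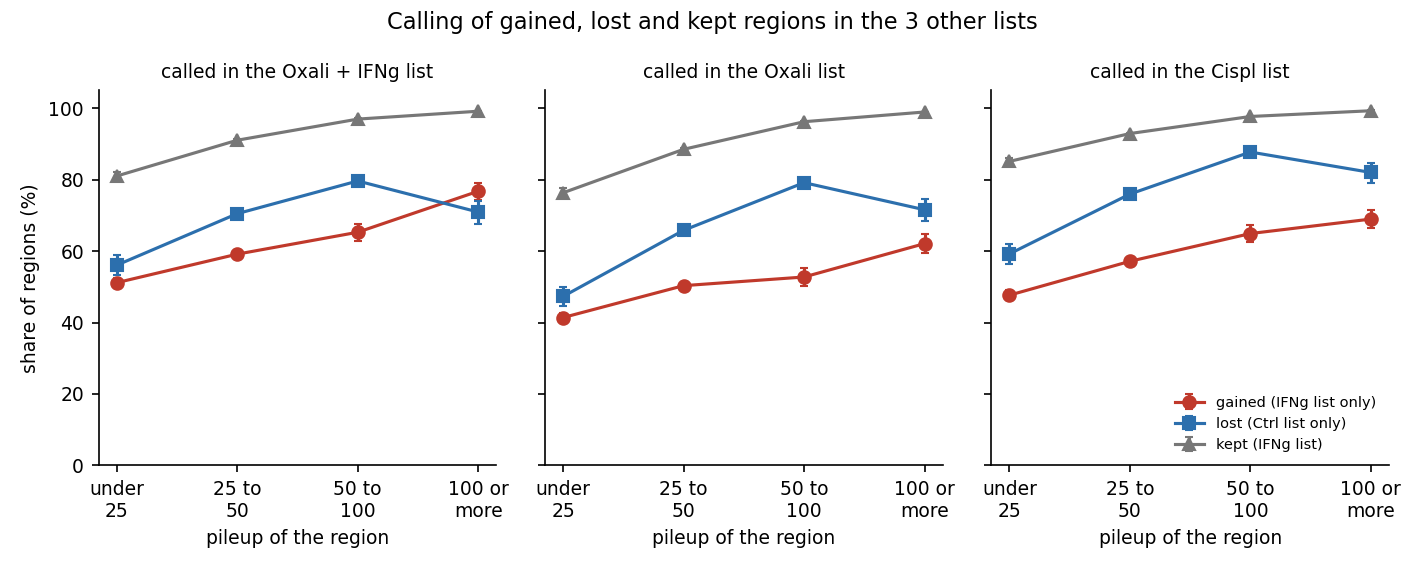
Share of gained, lost and kept regions (%) that were also called in the Oxali + IFNg, Oxali and Cispl lists, by the pileup of the region, with 95% Wilson intervals. Gained regions with a pileup of 100 or more were called in 76.8% of cases in Oxali + IFNg and in 62.1% in Oxali, and kept regions stood above both other classes throughout.

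By the ratio of their shares, the motifs of AP-1, CTCF, RUNX and ETS factors differed most between the classes. AP-1 dimers of Fos and Jun proteins read TGANTCA, which stood in 23.0% of gained (22.4 to 23.7), 22.9% of kept and 12.9% of lost regions (12.4 to 13.3). CTCF, the insulator protein, was searched as CCANNAGNNGGC, which stood in 3.40% of gained (3.14 to 3.67), 14.0% of kept and 17.7% of lost regions (17.2 to 18.2). The RUNX letters TGTGGTT stood in 7.25% of gained, 8.34% of kept and 13.0% of lost regions. The ETS letters CCGGAAG stood in 0.976% of gained, 0.957% of lost and 2.95% of kept regions, and the NF-kappaB letters GGGNNTTCC in 2.22%, 2.23% and 2.81%. The FOXA letters TGTTTAC gave 3.66%, 4.41% and 4.61%, the E-box CACGTG 3.11%, 4.06% and 3.98%, and the androgen half-site AGAACA 16.8%, 20.3% and 18.3%, for gained, lost and kept.

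**Figure D5:**
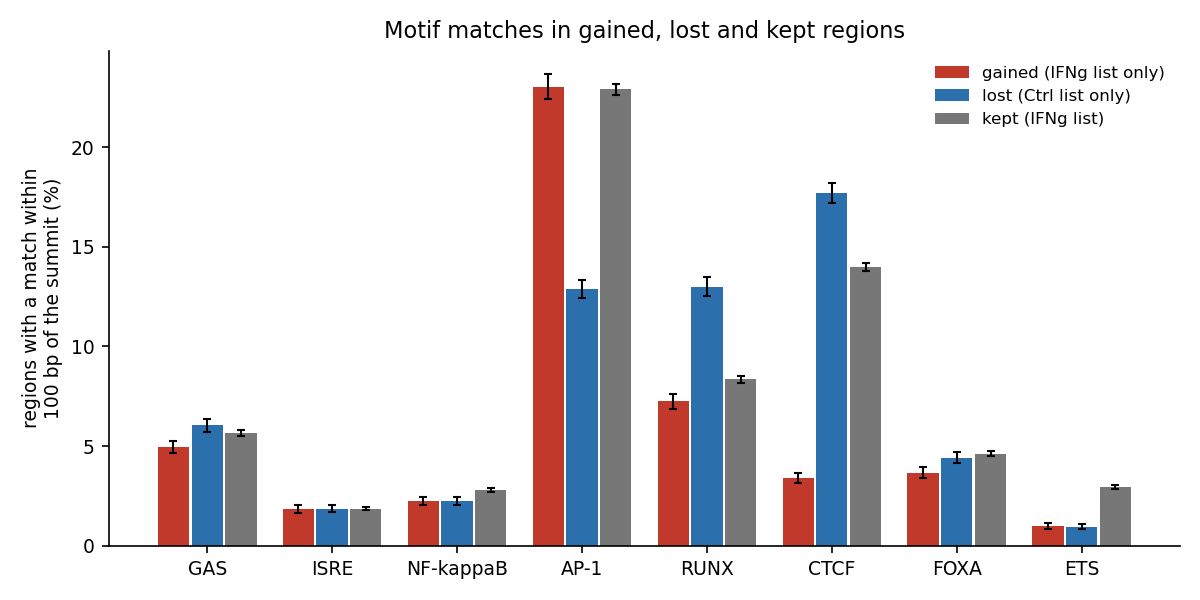
Share of gained, lost and kept regions (%) with an exact match to each motif within 100 bp of the summit, with 95% Wilson intervals. ISRE shares are close in all 3 classes, GAS goes from 4.94% of gained to 6.04% of lost regions, AP-1 is lowest in lost regions and CTCF lowest in gained regions.

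The ETS gap lay at start sites, where these letters stood in 1.23% of gained and 10.8% of kept regions, against 0.944% and 1.21% elsewhere. Away from start sites and at a pileup of 25 to 50, CTCF stood in 3.83% of gained and 14.0% of kept IFNg regions, and AP-1 in 27.1% and 22.1%, which over the whole lists had been alike. At a pileup of 50 to 100 the AP-1 shares were 25.7% and 24.9%, with overlapping intervals. In regions at least 50% repeat-masked at a pileup of 25 to 50 they were 12.6% and 15.0%, so the AP-1 excess did not hold there. In the Ctrl list at the same pileups, AP-1 stood in 14.3% of lost and 25.9% of kept regions and CTCF in 17.0% and 6.96%. The CTCF share of lost regions moved with repeat content: in regions at least 50% repeat-masked CTCF stood in 43.8% of lost and 34.0% of kept Ctrl regions, but in the others in 7.69% of lost and 11.0% of kept. RUNX stood in 31.4% of masked lost and 21.5% of masked kept Ctrl regions, but in 5.95% and 6.51% of the others, and 23.1% of masked lost regions held both motifs. Masked regions made up 27.7% of lost and 18.02% of gained regions, against 13.1% of kept Ctrl and 13.2% of kept IFNg regions. Within repeat classes and at like strength, away from start sites, a split added after seeing the data, CTCF stood in more lost than kept Ctrl regions in both classes. Among those under 50% masked the shares were 6.95% and 3.43% at a pileup of 25 to 50 and 14.9% and 11.2% at 50 to 100, and among the masked ones 42.9% and 21.8%, then 57.0% and 40.6%. RUNX was higher in lost than in kept regions in the masked class alone, with 6.13% and 7.15% in the other at a pileup of 25 to 50. In masked sequence reads can come from other copies. In gained regions CTCF was below kept ones in both classes, at 1.88% against 10.9% and 10.3% against 34.0%, and in both pileup classes within each.

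Levels of kept regions differed with the same motifs. Away from start sites, regions with AP-1 were at 0.14 against -0.08 without it, and those with CTCF at -0.14 against 0.02. In the second pair these were 0.04 and 0.00 for AP-1, and -0.02 and 0.02 for CTCF, of the same sign and smaller. At start sites CTCF went the other way, at -0.16 with it against -0.25 without, and at -0.17 against -0.31 in the second pair. Start sites with AP-1 were at 0.04 against -0.27, and at -0.08 against -0.33 in the second pair. Start sites with the ETS letters were at -0.36 against -0.22 without them, and at -0.42 against -0.28 in the second pair, while start sites with an ISRE were at -0.12 (n = 319) against -0.25, and at -0.14 against -0.31. Start sites with the RUNX or FOXA letters or the androgen half-site differed from the rest by as much, at -0.12, -0.13 and -0.13 against -0.25, -0.25 and -0.26, so the ISRE difference was not particular to it. None of these motif values was set against start sites of like pileup, and the part of pileup in them was not tested.

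Of 1060 regions at least 2-fold higher in IFNg that had a level in the second pair, 73.2% were above its median, by 0.18 at the median, against 44.8% of regions with a smaller change. Of 679 at least 2-fold lower ones 21.1% were above it. AP-1 stood in 46.7% of the former, 9.72% of the latter and 24.7% of those between, and CTCF in 1.32%, 19.6% and 16.9%. Start sites made up 6.04%, 27.0% and 21.6% of these sets in the same order, and the values were not split by position. Across regions the log2 ratios of both pairs correlated with a Pearson r of 0.54 at start sites (n = 16477) and 0.25 elsewhere (n = 60406), a description over points that share their libraries and their depth.

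To show the letters of these motifs, the leading gained regions on the genome background with an AP-1 match and the leading lost ones with a CTCF match, as well as a leading lost region with an ISRE, are given with the match in capitals (plus strand, GRCm38). The AP-1 and CTCF regions were picked after their values were seen.
Itprid2, gained, AP-1 (chr2:79619162-79619262): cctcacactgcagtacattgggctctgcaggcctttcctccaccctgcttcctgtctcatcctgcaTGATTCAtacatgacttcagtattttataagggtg
Adgrg2, gained, AP-1 (chrX:160336737-160336865): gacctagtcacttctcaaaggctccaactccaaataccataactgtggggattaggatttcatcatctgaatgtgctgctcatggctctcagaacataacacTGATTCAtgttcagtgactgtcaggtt
Ctsj, lost, CTCF (chr13:60987069-60987169): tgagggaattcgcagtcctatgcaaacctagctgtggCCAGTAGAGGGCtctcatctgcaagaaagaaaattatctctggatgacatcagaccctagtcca
Trpm8, lost, CTCF (chr1:88301763-88301863): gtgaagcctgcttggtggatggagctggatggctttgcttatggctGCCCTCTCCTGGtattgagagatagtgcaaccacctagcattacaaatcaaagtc
Abi3bp, lost, ISRE (chr16:56677282-56677444): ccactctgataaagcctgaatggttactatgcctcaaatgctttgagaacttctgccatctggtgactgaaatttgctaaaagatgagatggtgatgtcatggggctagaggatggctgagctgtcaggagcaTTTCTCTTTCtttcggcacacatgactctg

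The gained region with the lowest q-value on the genome background, among those 500 bp or more from a Ctrl region and under 50% masked, lay 16140 bp from Itprid2, at chr2:79619058-79619392, with pileups of 0 in Ctrl, 73 in IFNg, 41 in Oxali, 38 in Cispl and 62 in Oxali + IFNg. The region nearest to Adgrg2, chrX:160336623-160336995, had 66 in IFNg, 29 in Cispl and no call in the other 3 lists. An intronic region of Mitf, a factor of pigment cells, had 59 in IFNg, 61 in Oxali and 102 in Oxali + IFNg. An intronic region of Col6a6 at chr9:105710246-105710549 had 58 in IFNg and no call in any other list. The region nearest to Syf2, chr4:134992324-134992839, had 57 in IFNg and 182, 100 and 283 in Oxali, Cispl and Oxali + IFNg. Of these 10 leading regions 6 held an AP-1 match, and the 5 others of the list lay nearest to or in Kalrn, Akr1e1, Prdm2, Klf5 and Gm21885.

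By q-value the leading gained regions stood on raised local background. The first was an intronic region of Nln, a metallopeptidase, chr13:104041138-104041337, with 299 in IFNg over a background of 96.5, no call in Ctrl, and 258, 250 and 271 in Oxali, Cispl and Oxali + IFNg. A region 3082 bp from Smad6, an inhibitor of BMP signaling, had 311 in IFNg, 352 in Cispl and 372 in Oxali + IFNg. An intronic region of Lmna, the gene of lamin A, had 336, 380, 454 and 516 in IFNg, Oxali, Cispl and Oxali + IFNg, and a start-site region of Sin3a, a corepressor, 463 in IFNg, 453 in Oxali + IFNg and no call in the platinum lists. Osbp2, Kmt2e, Rab37, Epo, Acaa2 and a further region of Sin3a made up the 10.

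Lost regions were led by an intergenic one 3485 bp from Wdr60, chr12:116202677-116202893, with pileups of 290 in Ctrl, 0 in IFNg, 225 in Oxali, 272 in Cispl and 158 in Oxali + IFNg. The region 1970 bp from Lin28a, an RNA-binding protein of stem cells, had 126 in Ctrl, 93 in Oxali, 95 in Cispl and 43 in Oxali + IFNg, on the genome background. An intronic region of Cers6, a ceramide synthase, had 106, 92, 105 and 125 in those lists. Others, near or in Wdr91, Ctsj, Pik3r6, Podxl, Arhgef3 and Gm14444, were also called in Cispl. For Wdr60 and Lin28a the Oxali + IFNg value was the lowest of the called lists, and for Cers6 it was the highest.

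Genes with the most gained regions were long ones. Gm20388 (121 gained, 138 lost), Fgfr2 (48 and 52) and Gm37240 (16 and 28) are annotated over more than 1 Mb each and were among the 10 in both directions. Pde4d, a phosphodiesterase of cyclic AMP, had 20 gained against 7 lost, Trio, an exchange factor of small GTPases, 12 against 3, and Exoc4 22 against 13. Zbtb20, a zinc finger repressor, had 8 gained against 36 lost, Akap13 3 against 13 and Camta1 7 against 17. Tmem178b, Tbxas1, Dgki and Gse1 completed the 10 with most gained, and Tbxas1, Slc39a11, Hipk2 and Adk those with most lost.

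Among start sites held by both lists Fut1, a fucosyltransferase, had the highest IFNg level over Ctrl, with pileups of 57 in Ctrl and 116 in IFNg, which is 1.57 on the log2 scale (95% counting interval 1.12 to 2.03), and 0.35 in the second pair. Car9, a carbonic anhydrase induced by hypoxia, had 122 and 184, or 1.14, with 0.17 in the second pair, and Il24, a cytokine gene, 49 and 77, or 1.20, with 0.10. Most of these start sites were weak, and for these 3 the second pair was nearer to its median. The other 7 were Dthd1 (-0.28 in the second pair), Alpi, Adgrf4, Gm5767, 9130019O22Rik (0.53), AB124611 (0.63) and Gas7 (0.66). Among the 10 start sites with the lowest IFNg level over Ctrl, Marf1 had 1992 and 463, or -1.56 (-1.70 to -1.41), and -1.52 in the second pair, and Pim1, a kinase gene, 2119 and 543 (-1.42, then -1.12). Usp28, Vps26a, Rab22a, Ntmt1, Rngtt, S100pbp and Gm20878 were also among them, and all 10 were below the median in the second pair too, from -0.78 at Rab22a to -1.52 at Marf1. Most start sites were below that median, with -0.40 for all protein-coding genes in the second pair and -0.45 at a mean pileup of 1000 or more. These genes were taken from the ends of the distribution, so their first-pair values are a description.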

How the data were processed

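ATAC-seq peak lists of 5 groups (10 libraries, 2 per group) were used. Per the study's methods and the submitters' processing notes, reads were trimmed with cutadapt, aligned to mm10 with Bowtie2 2.2.8 and filtered with SAMtools. Duplicates and mitochondrial reads were removed, both libraries of a group were pooled, and peaks were called with MACS2 2.1.0 at a p-value of 0.01 with no control library. The lowest −log10 p-value is 2.00 in 4 of the 5 lists but 2.99 in Cispl, so that list is stricter than the others. The deposited values for each summit are a score, the fold of pileup over local background (both plus 1), and the −log10 p-value and −log10 q-value that MACS2 gave the authors. Totals of reads are not used here, so depth was read from the genome background of each list.

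Pileup and local background were solved for each summit from the deposited fold and −log10 p-value, with a solution for 201223 of 201223 Ctrl and 201782 of 201782 IFNg summits. A region was 1 distinct interval, with the values of its strongest summit, and 1 shared base counted as overlap. Positions were taken from GENCODE M21, motifs and soft-masked (repeat) bases from the GRCm38 sequence. Levels are log2 ratios of pileup over genome background with Poisson intervals, and shares have 95% Wilson intervals. Each list holds 1 pooled value per group, and counts per library are not used here, so no test across replicates was made. Python 3.11.15, NumPy 2.4.6, pandas 2.3.3, SciPy 1.17.1 and matplotlib 3.10.9 were used, and the scripts were tested on simulated data.

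Named regions were the 10 gained and 10 lost with the lowest q-value that lay at least 500 bp from the other list and were under 50% masked, and the same on the genome background alone. Named genes were those of 219 listed genes (215 found) with a changed region within 5 kb, the 10 with most gained or lost regions, and the 10 start sites with the highest or lowest level ratio at a pileup of at least 50. The comparison, its lists and its tests were chosen with earlier results of these data known. Alternatives were q-value limits of 0.01 and 1e-05, overlap of at least 50%, leaving out regions within 500 bp of the other list or at least 50% masked, matching depth or number of regions, other windows and another scale. Restriction to regions on the genome background, levels against start sites of like pileup and motif shares by repeat content and pileup together were chosen after seeing the data. Some listed genes and regions are not reported here.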

Additional observations from a re-analysis of the deposited data

How the results depend on the processing

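The 18133 gained regions became 6317 with a q-value limit of 1e-05, 11132 without regions within 500 bp of the other list and 10358 on the genome background alone, and the 21109 lost regions became 11299 at 1e-05. The gained share of changed regions, 46.2%, was 43.9% and 35.9% with q-value limits of 0.01 and 1e-05, 40.5% without regions within 500 bp, 47.3% at matched depth, 49.3% without masked regions and 40.3% on the genome background, and it passed an even split, at 50.2%, with equal numbers of regions in both lists. The start-site share of gained regions, 11.2%, was 11.8% and 15.0% with the q-value limits, 6.88% without regions within 500 bp, 12.1% without masked regions, 6.29% on the genome background and 5.70% with a start-site window of 500 bp. That of lost regions, 7.04%, was 6.00%, 8.03%, 5.91% and 4.34% under the last 4 of these. The share of gained regions called in Oxali + IFNg among those called in 1 list of that pair, 77.9%, was 82.1% at 1e-05 and 79.3% on the genome background. The median level of kept regions turned from -0.21 to 0.22 when scaled to start sites. The causes were not tested. The genome-background restriction was chosen after seeing the data. Of the values of single lists, genes and motifs, 265 stayed within their counting interval or, for counts of genes, near the reported count, and 165 did not, and for the choices added after seeing the data these numbers were 37 and 31. No paired analysis was possible because the peak lists used here hold 1 pooled value per group, and counts per library are not used here. For the same reason no library was left out in turn. The genome background of 9.62 in IFNg against 12.1 in Ctrl can limit the detection of weak regions in the IFNg list. With the Ctrl list scaled to the IFNg depth, 18392 regions were gained and 20518 lost.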

Other observations

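Gene families differed in how often they had changed regions, against 32.8% of all protein-coding genes with a gained and 35.7% with a lost region. Of 31 integrin genes, which encode adhesion receptors, 25 had a gained and 20 a lost region. Of 26 calcium channel genes 12 had a gained and 22 a lost one, and of 68 protocadherin genes 15 and 32. Ribosomal protein genes showed the opposite balance to calcium channels and protocadherins, with 30 of 77 gained and 14 lost. Their median start-site level was -0.42 (n = 74) against -0.35 for all genes. Tumor necrosis factor ligands and receptors had 19 of 32 with a gained and 14 with a lost region, and keratins 14 and 17 of 53. The keratins had a median start-site level of 0.21 (n = 10, range -0.63 to 0.68). Among 1134 olfactory receptor genes, best known from sensory neurons of the nose, 31 had a gained and 46 a lost region. Long genes have more regions of every kind, and the family values were not adjusted for length. Family levels were not set against start sites of like pileup, although the start-site ratio moved with pileup.

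By chromosome the share of gained regions went from 12.7% on chromosome 10 to 18.6% on chromosome 12, apart from chromosome Y, where 22 of 72 IFNg regions were gained. Of 2501 windows of 1 Mb with a region in either list, 2094 held a gained and 2141 a lost one, so changes were spread over the genome. The window with the most gained regions lay on chromosome X around Eda2r and Pgr15l, with 63 gained of 452 and 48 lost of 432. A window on chromosome 12 with no gene annotated as protein-coding (115 to 116 Mb) held 49 gained regions of 73, against 9 lost of 34. On chromosome 8 the window around Gpm6a, Adam29 and Glra3 held 16 gained of 23. On chromosome 14 a window with no gene annotated as protein-coding (53 to 54 Mb) held 13 lost of 21. Genes of other classes were not looked up for any window, so these windows need not be empty of genes. Windows with zinc finger clusters on chromosome 4 held 13 gained of 22 and 23 gained of 57. Several of these windows hold near-identical gene copies, where reads can be placed on more than 1 copy, and the part of this in the counts was not tested.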
